A study of Mus musculus with 6 samples.

Results

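The proteasome genes measured here are the genes whose symbols begin with Psma, Psmb, Psmc, Psmd, Psme, Psmf or Psmg followed by a number. They numbered 46 of the 25206 probe sets on the array, with 1 probe set per gene. Of the 48 mouse genes with such a symbol in a RefSeq gene table, Psmb3 and Psmb5 were not analysed here. Transcripts were measured on 6 arrays of macrophages that had been grown out of mouse bone marrow. The control group held 3 samples labelled as given no treatment. The other group held 3 samples given 0.3 micromole of JG-98, an inhibitor of Hsp70 chaperones, for 16 hours. That dose is stated as an amount without a volume, and no vehicle, strain, sex or age is named. Whether the replicates of a group were separate animals or cultures is not stated either, so the p-values cover the spread among these samples alone, and that spread may be technical. The comparison asks whether blocking Hsp70, which holds unfolded proteins and passes some of them on for degradation, altered transcripts of the machine that degrades them.

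The proteasome is a barrel-shaped protease that cuts proteins tagged with ubiquitin into peptides. Its 20S core is built from an alpha ring, which gates entry, and a beta ring, which holds the catalytic sites, and its 19S cap recognises, unfolds and feeds in the tagged protein. Macrophages also make an immunoproteasome, in which the interferon-inducible subunits Psmb8, Psmb9 and Psmb10 replace the constitutive catalytic subunits Psmb5, Psmb6 and Psmb7, and the interferon-inducible activator PA28, made of Psme1 and Psme2, can take the place of a cap. The immunoproteasome is known for cutting peptides that MHC class I molecules present. When proteasome activity falls short, the transcription factor NRF1, encoded by Nfe2l1, is known to raise most constitutive subunit genes together.

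No proteasome transcript passed the test between JG-98 and control macrophages. At a limma adjusted p under 0.05, 0 of 46 members rose, where 0.0317% of all probe sets did, and 0 fell, where 0.00793% did (0.0397% in both directions together, 10 of 25206). The smallest adjusted p among members was 0.62. At an unadjusted p under 0.05 limma also marked 0 members, against 8.32% of all probe sets (3.84% higher and 4.48% lower). Of the 8064 probe sets above a mean log2 value of 6, it marked 464 higher and 619 lower. The median member differed by 0.03 on the log2 scale (JG-98 minus control), and the middle of the members, from the lower to the upper quartile, ran from -0.02 to 0.07. The members' median was 0.057 without JG-98 replicate 3, 0.052 without control replicate 1, 0.013 without control replicate 2 and 0.017 without JG-98 replicate 1. Over all probe sets the median, with all arrays, was 0.00 with quartiles of -0.09 and 0.09. Members lay mostly at high levels, 40 of them above a mean log2 value of 6, and among all 8064 probe sets above that level the quartiles were -0.09 and 0.06.

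The intervals bound what these arrays could show. The 95% interval of the difference, from limma's moderated error and not adjusted for the number of genes, lay wholly between -0.5 and 0.5 in 43 of 46 members and between -0.3 and 0.3 in 32. Of all probe sets, 78.95% had an interval between -0.5 and 0.5, and of those above a mean of 6, 93.2% did. Between -0.3 and 0.3 it lay in 8947 of all 25206 probe sets and in 4942 of the 8064 above that mean. The 3 members whose interval passed -0.5 or 0.5 were Psma3, Psma5 and Psmb11. The difference was positive in 31 members (67.4%) and negative in 15, where 50.3% of all probe sets and 46.6% of those above a mean of 6 were positive. After each array was centred on its own median, 25 members were positive with a median of 0.007, beside a median of -0.02 over all probe sets. JG-98 values lay above every control value in 4 members, Psmb1, Psmb4, Psmd7 and Psme4, where 7.12% of all probe sets did so. They lay below in 0 members, against 8.44% of all probe sets. Of the 8064 probe sets above a mean of 6, where 40 members lay, 1027 had them above and 1350 below.

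**Figure D1:**
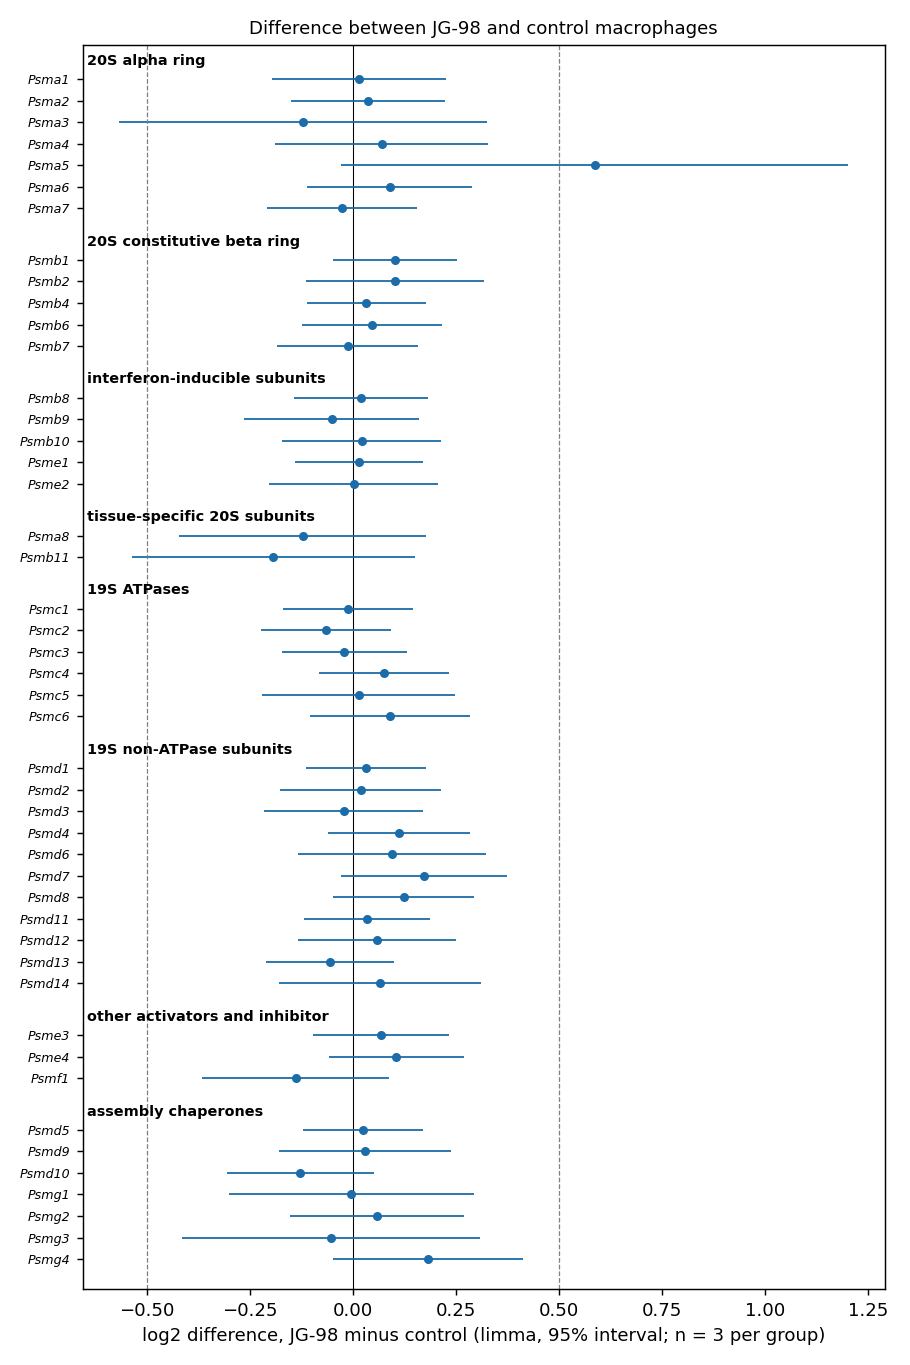
Log2 difference between JG-98 and control for each of the 46 proteasome genes, grouped by role, with its 95% interval from limma (n = 3 per group); dashed lines mark -0.5 and 0.5. Every interval includes 0, and those of Psma3, Psma5 and Psmb11 pass a dashed line.

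The 6 array medians ran from 4.08 to 4.24 (log2). JG-98 replicate 3 stood apart, correlating with the other arrays at 0.992 to 0.9935 where the other pairs reached 0.9948 to 0.9964, so group medians are given below with and without it. Macrophage markers, among them Csf1r, Cd68 and Adgre1, bore out the label, with all 10 measured markers above a mean of 6 and their summed log2 level at 14.02 to 14.05 in controls and 13.93 to 14.02 with JG-98. Of 9 neutrophil markers 1 lay above 6, and their summed log2 level was 7.64 to 7.66 in controls and 7.19 to 7.26 with JG-98. Dendritic, B, T and NK, mast, erythroid, stromal and testis markers had 0 members above 6, and their summed levels overlapped between groups. The part of cell composition in the values below was not tested, and fewer cells of a type cannot be told apart from less RNA per cell.

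In the alpha ring, 5 of 7 subunits lay close to their controls. Psma1, Psma2, Psma4, Psma6 and Psma7, structural subunits of that ring, were at differences of -0.03 to 0.09, and their values overlapped between groups. Psma5, another structural subunit, had the largest difference of any member. Its values were 1.77, 1.63 and 2.12 in control replicates 1, 2 and 3, and 2.05, 2.23 and 2.99 with JG-98. JG-98 replicate 3 was the highest and control replicate 3 lay inside the JG-98 range, so the groups overlapped. The difference was 0.59 ± 0.26 (SE, n = 3 per group; limma adjusted p = 0.62), and 0.31 ± 0.16 without JG-98 replicate 3. Its mean level lay above only 14.4% of all probe sets, where background is not excluded. Psma3 was the next widest, at 6.39, 6.19 and 6.45 in controls and 6.47, 6.40 and 5.80 with JG-98. Its lowest value again stood on JG-98 replicate 3, and its difference of -0.12 ± 0.19 became 0.09 without that array. The median of the 7 alpha subunits was 0.04, and 0.09 without JG-98 replicate 3.

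In the constitutive beta ring, the structural subunit Psmb1 read 8.86, 8.92 and 8.92 in controls and 9.02, 9.03 and 8.95 with JG-98. All 3 JG-98 values stood above the controls, by a difference of 0.10 ± 0.063 (limma adjusted p = 0.73). Psmb2, another structural subunit, read 8.86, 8.70 and 8.70 in controls and 8.93, 8.92 and 8.71 with JG-98, where replicate 3 fell among the controls. Psmb4 was among the steadiest members. Its control values spanned 7.53 to 7.58 and its JG-98 values 7.59 to 7.61, groups that did not overlap at a difference of only 0.03 ± 0.060. The catalytic subunit Psmb6, which cuts after acidic residues, read 9.97, 9.96 and 9.91 in controls and 10.03, 10.05 and 9.89 with JG-98. Psmb7, whose site cuts after basic residues, read 9.54, 9.44 and 9.47 and then 9.55, 9.47 and 9.40. For both, JG-98 replicate 3 gave the lowest value of the 6 and the groups overlapped, at differences of 0.05 ± 0.071 and -0.01 ± 0.071. The median of the 5 measured subunits was 0.05, and 0.10 without JG-98 replicate 3.

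The ATPases of the 19S base, which unfold substrates and open the core, had the median closest to 0 of the groups described. It was 0.00 over 6 genes, 0.03 without JG-98 replicate 3 and -0.02 after median centring. Psmc4 had the smallest p-value of them. Its values were 8.61, 8.65 and 8.72 in controls and 8.69, 8.76 and 8.76 with JG-98, which overlapped through control replicate 3, at a difference of 0.08 ± 0.066 (limma adjusted p = 0.81). Psmc6 was at 0.09 ± 0.081, Psmc2 at -0.07 ± 0.066, and Psmc1, Psmc3 and Psmc5 at -0.02 to 0.01.

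Among the other subunits of the 19S cap, 9 of 11 differences were positive, with a median of 0.06 (0.04 after median centring). Psmd7, a scaffold of the lid that partners the deubiquitinase Psmd14, had the smallest p-value of any member after Psma5. It read 8.61, 8.55 and 8.57 in controls and 8.71, 8.89 and 8.64 with JG-98. All 3 JG-98 values lay above the controls, with replicate 2 well above the rest, at a difference of 0.17 ± 0.084 (95% interval -0.03 to 0.37; limma adjusted p = 0.67). Psmd8, a lid subunit, read 10.03, 9.87 and 9.90 in controls and 10.06, 10.09 and 10.03 with JG-98. Control replicate 1 reached the JG-98 range, and the difference was 0.12 ± 0.072. Psmd4, a ubiquitin receptor of the cap, read 7.54, 7.40 and 7.43 and then 7.62, 7.50 and 7.58, with overlap through control replicate 1, at 0.11 ± 0.072. Psmd14, which removes ubiquitin chains before degradation, was at 0.07 ± 0.10 and the large base subunits Psmd1 and Psmd2 at 0.03 ± 0.061 and 0.02 ± 0.082. The lid subunit Psmd6 was at 0.09 ± 0.095, and the remaining lid subunits Psmd3, Psmd11, Psmd12 and Psmd13 lay between -0.06 and 0.06. Without JG-98 replicate 3 the median of the 11 was 0.10. Psmd6 and Psmd7 were then at 0.19 ± 0.062 and 0.23 ± 0.080 (limma adjusted p = 0.40 and 0.41). In that fit Psmd6, Psmd7, Psmg3 and Psmg4 were the 4 of 46 members at an unadjusted limma p under 0.05. With all arrays 8.32% of all probe sets reached that p, and the share in that fit is not given here.

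**Figure D2:**
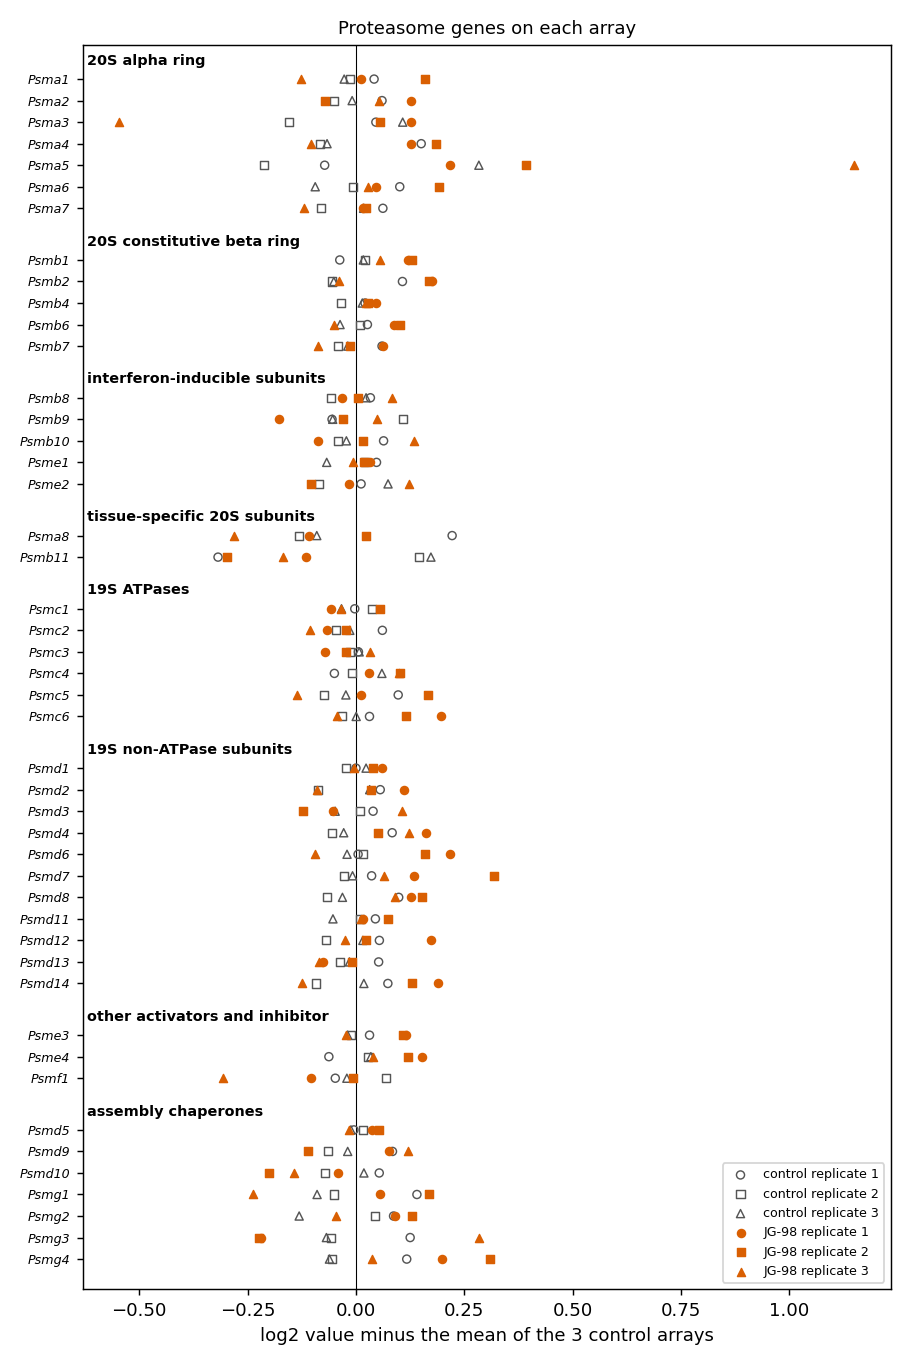
Value of each proteasome gene on each array as its log2 distance from the mean of the 3 control arrays. Open grey symbols are controls and filled orange symbols JG-98. The marker shape gives the replicate number, and no pairing by that number is stated. Most genes stay within a narrow band around 0, and JG-98 replicate 3 (orange triangles) gives the far points of Psma3 and Psma5.

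Activators, the inhibitor and assembly factors were also without a call. Psme4, the large activator PA200, read 7.96, 8.05 and 8.06 in controls and 8.18, 8.14 and 8.06 with JG-98. The groups met at 8.06 without overlapping, and the difference was 0.10 ± 0.068. Psme3, the nuclear activator PA28 gamma, was at 0.07 ± 0.069. Psmf1, which encodes the proteasome-binding protein PI31, read 8.16, 8.27 and 8.18 in controls and 8.10, 8.20 and 7.89 with JG-98. Its groups overlapped through JG-98 replicate 2, at -0.14 ± 0.094 (limma adjusted p = 0.76).

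The 7 assembly chaperones, which help build the core (Psmg1 to Psmg4) or the 19S base (Psmd5, Psmd9 and Psmd10) and leave the finished particle, had a median of 0.02. It was 0.045 without JG-98 replicate 3, 0.065 without control replicate 1, -0.0035 without control replicate 2 and -0.0079 without control replicate 3. Psmg4 read 5.04, 4.87 and 4.86 in controls and 5.12, 5.23 and 4.96 with JG-98. Control replicate 1 lay inside the JG-98 range, and the difference was 0.18 ± 0.096 (limma adjusted p = 0.69), or 0.25 ± 0.087 without JG-98 replicate 3. Psmg3 went from -0.05 ± 0.15 to -0.22 ± 0.084 when that array was left out, and the 4 Psmg genes had differences of both signs in either fit. Psmd10, also known as gankyrin, read 7.18, 7.05 and 7.14 in controls and 7.08, 6.92 and 6.98 with JG-98. It overlapped through JG-98 replicate 1, at -0.13 ± 0.074. Psmg1, Psmg2, Psmd5 and Psmd9 lay between 0.00 and 0.06 in size.

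Both tissue-specific core subunits stood at low levels. Psmb11, known from the cortical epithelium of the thymus, read 3.27, 3.73 and 3.76 in controls and 3.47, 3.29 and 3.42 with JG-98. Control replicate 1 was the lowest of the 6, and the mean level lay above 38.6% of probe sets, where background is not excluded. The difference was -0.19 ± 0.14 (limma adjusted p = 0.78), or -0.35 without control replicate 1 (limma adjusted p = 0.68). In that fit Psmb11 was the 1 member at an unadjusted limma p under 0.05, and the share of all probe sets there is not given here. Psma8, known from meiotic cells of the testis, ranged from 3.81 to 4.32 over the 6 arrays, at a difference of -0.12 ± 0.13 with overlap.

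The interferon-inducible subunits lay at differences of -0.05 to 0.02, the narrowest range of the groups with 5 or more members. Psmb8, which takes the place of Psmb5, read 8.86, 8.77 and 8.85 in controls and 8.79, 8.83 and 8.91 with JG-98. The groups overlapped, at a difference of 0.02 ± 0.068 (95% interval -0.14 to 0.18; limma adjusted p = 0.97). Psmb9, which takes the place of Psmb6, read 7.14, 7.31 and 7.15 in controls and 7.02, 7.17 and 7.25 with JG-98. Control replicate 2 was the highest and JG-98 replicate 1 the lowest of the 6, and the difference was -0.05 ± 0.089 (95% interval -0.26 to 0.16). Psmb10, which takes the place of Psmb7, read 7.87, 7.76 and 7.78 in controls and 7.72, 7.82 and 7.94 with JG-98. The JG-98 values enclosed the controls, at 0.02 ± 0.080 (95% interval -0.17 to 0.21).

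The PA28 activator was as even. Psme1 read 9.22, 9.20 and 9.11 in controls and 9.21, 9.20 and 9.17 with JG-98, a difference of 0.02 ± 0.065. Psme2 read 5.78, 5.69 and 5.85 and then 5.76, 5.67 and 5.89, a difference of 0.00 ± 0.085 with an interval of -0.20 to 0.21. Both overlapped between groups. The mouse genome holds a close copy of Psme2, named Psme2b, and pseudogenes of Psmb6 and Psmb7, whose transcripts could share probes with these genes.

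**Figure D3:**
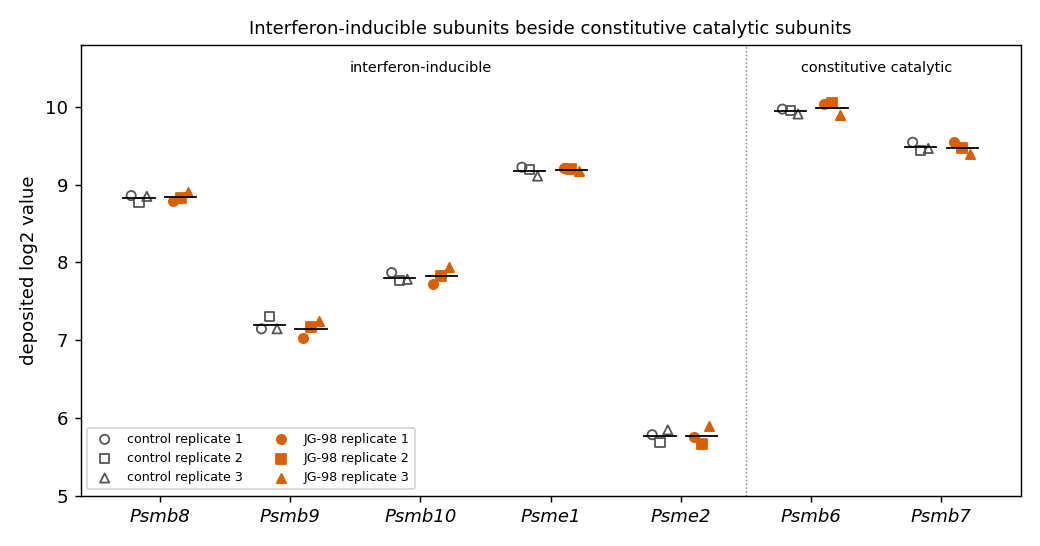
Deposited log2 values of the 5 interferon-inducible subunits and of the constitutive catalytic subunits Psmb6 and Psmb7 on each array, with black bars at the group means (n = 3 per group); levels of different genes are not comparable on this scale. In all 7 genes the JG-98 values overlap the control values.

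Set beside each other, the 5 interferon-inducible subunits had a median difference of 0.02 and the 29 measured constitutive subunits of core and cap one of 0.04. After median centring these were -0.004 and 0.02. Without JG-98 replicate 3 they were -0.03 over the inducible subunits and 0.09 over the constitutive ones. In that fit 1 of 5 inducible subunits and 24 of 29 constitutive subunits had a positive difference. So did 11330 of all 25206 probe sets (median -0.02) and 4332 of the 8064 above a mean of 6 (median 0.01). With all arrays 4 of 5 inducible and 21 of 29 constitutive subunits were positive. The shares were then 50.3% of all probe sets and 46.6% of those above a mean of 6. No member of either group passed the test in either fit.

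Each inducible subunit was also set against its constitutive counterpart within an array, where the change of the difference can be read but not its size, since probe sets are not on 1 scale. Psmb9 minus Psmb6 was -2.83, -2.65 and -2.76 in controls and -3.01, -2.88 and -2.64 with JG-98. The groups overlapped, and the mean moved by -0.10 with JG-98 (95% interval -0.43 to 0.23; exact two-sided permutation p = 0.5, adjusted p = 0.7 over 2 pairs). It moved by -0.20 without JG-98 replicate 3, by -0.015 without JG-98 replicate 1 and by -0.049 without control replicate 2. Psmb10 minus Psmb7 was -1.68 in each control, and -1.83, -1.65 and -1.46 with JG-98. Here the JG-98 arrays spread to both sides of 3 nearly equal controls, and the mean moved by 0.03 (95% interval -0.26 to 0.33; exact two-sided permutation p = 0.7, adjusted p = 0.7), or by -0.06 without JG-98 replicate 3. With 3 samples a group the smallest p this test can give is 0.1. Psmb8 was not paired, because Psmb5 was not analysed here.

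The JG-98 arrays themselves were not alike. Against the control mean, the median constitutive subunit stood at 0.09 on JG-98 replicate 1, at 0.07 on replicate 2 and at -0.03 on replicate 3. The median interferon-inducible subunit was at -0.03 and 0.00 on replicates 1 and 2 and at 0.08 on replicate 3. Over all probe sets above a mean of 6 these medians were 0.01, 0.01 and -0.05. Of 29 constitutive subunits, 12 had their highest value of the 6 arrays on JG-98 replicate 1, 11 on JG-98 replicate 2 and 3 on JG-98 replicate 3, while 13 had their lowest value on JG-98 replicate 3. Of the 5 inducible subunits 3, namely Psmb8, Psmb10 and Psme2, were highest on JG-98 replicate 3. The share of all probe sets with an extreme on each array is not given here. These counts therefore cannot be read as particular to the proteasome. The controls differed too, with the median constitutive subunit at 0.05 on control replicate 1 and -0.04 on control replicate 2. In limma's array weights, JG-98 replicate 3 received 0.334 and the other 5 arrays 0.915 to 2.36. Values without it are given above for the medians of subunit groups, the 2 pairs and some single genes. Its part in the other differences above is not shown.

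**Figure D4:**
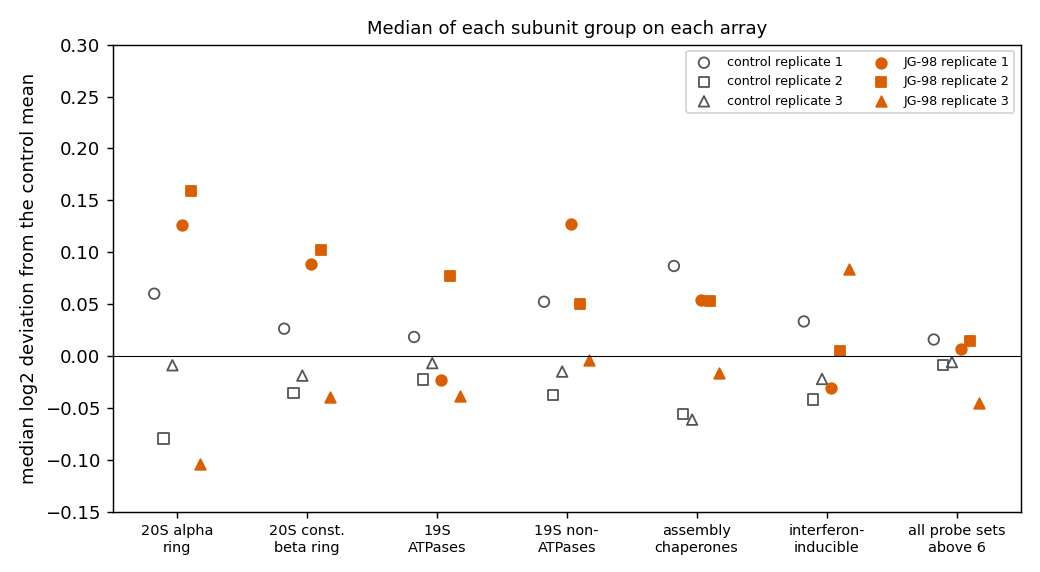
Median log2 deviation from the control mean for each subunit group, and for all probe sets with a mean level above 6, on each of the 6 arrays; symbols as labelled. JG-98 replicates 1 and 2 lie above the controls in the alpha ring and constitutive beta ring, while JG-98 replicate 3 lies below them there and above them in the interferon-inducible group.

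Partners of the proteasome and factors that control its genes were read from lists of related genes. Of 18 measured partners (ubiquitin shuttles, cap-associated enzymes and assembly factors) 0 passed over all probe sets, with a median of 0.03. At an unadjusted p under 0.05 there were 4, each positive, where 8.32% of all probe sets reached that p and 3.84% did so with a positive difference. Of the 8064 probe sets above a mean of 6, 464 did so with a positive difference and 619 with a negative one. Ecpas, a scaffold that binds the cap to the core, read 8.11, 8.14 and 8.23 in controls and 8.39, 8.34 and 8.37 with JG-98. The groups did not overlap, at 0.20 ± 0.066 (limma adjusted p = 0.50). Of the 18 partners, 7 had all JG-98 values above all controls and 1 had them below, against 7.12% and 8.44% of all probe sets. Of the 8064 probe sets above a mean of 6, 1027 had them above and 1350 below. The ubiquitin shuttle Ubqln1 was at 0.20 ± 0.074, Faf1, a cofactor of the unfoldase VCP, at 0.17 ± 0.070, and Pomp, which guides assembly of the core, at 0.03 ± 0.077. The other of the 4 was the ubiquitin shuttle Rad23b, named after its values were seen, at 0.15 ± 0.063.

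Nfe2l1, the gene of NRF1, read 8.82, 8.67 and 8.71 in controls and 9.03, 8.94 and 8.88 with JG-98. All 3 JG-98 values lay above the controls, at 0.22 ± 0.076 (limma adjusted p = 0.52), so it did not pass. It was the 1 of 13 measured genes of that list at an unadjusted limma p under 0.05, which 8.32% of all probe sets reached. Among the other 12, Nfe2l2, the gene of the related factor NRF2, was at -0.05 ± 0.067. The ubiquitin ligase gene Fbxw7 was at 0.12 ± 0.080 and the small Maf gene Mafk at -0.10 ± 0.067. Of 10 ubiquitin-conjugating and activating genes 0 passed. At an unadjusted limma p under 0.05, 1 was positive and 1 negative, against 3.84% and 4.48% of all probe sets. Of the 8064 probe sets above a mean of 6, 464 were positive and 619 negative at that p. The conjugating enzyme genes Ube2d1, Ube2k and Ube2c were at -0.21 ± 0.062, 0.20 ± 0.071 and -0.17 ± 0.076. These 3, named because their limma p was the smallest of the list, were also its only genes without overlap. JG-98 values lay above all controls in 1 of the 10 genes and below them in 2, against 7.12% and 8.44% of all probe sets. Of the 8064 probe sets above a mean of 6, 1027 had them above and 1350 below.

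Genes of class I antigen processing, only some of which share interferon control with the immunoproteasome, had a median of 0.00 over 15 measured. Of these 0 passed and 1, Ide, had an unadjusted limma p under 0.05, which 8.32% of all probe sets reached. B2m, the light chain of class I molecules, was at 0.00 ± 0.068 and Tap1, which carries peptides into the endoplasmic reticulum and lies next to Psmb9, at -0.06 ± 0.059. The protease gene Ide was at 0.18 ± 0.061 (limma adjusted p = 0.51), H2-T23 at -0.20 ± 0.14 and Tapbpl at -0.18 ± 0.11.

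Factors of interferon signalling had 10 negative differences of 13, where 12536 of all 25206 probe sets and 4303 of the 8064 above a mean of 6 were negative. The list was not split by whether a factor activates or restrains the pathway, so these signs give no direction of signalling. The median of the 13 factors was -0.08, 0 passed and 1 had an unadjusted p under 0.05, against 8.32% of all probe sets. That gene was Irf1, an activator of the immunoproteasome genes, which read 6.69, 6.65 and 6.66 in controls and 6.49, 6.38 and 6.50 with JG-98. All JG-98 values lay below all controls, at -0.21 ± 0.066 (limma adjusted p = 0.49). Ifngr2, a chain of the interferon gamma receptor, was at -0.16 ± 0.070, also without overlap. JG-98 values lay below all controls in 5 of the 13 genes and above them in 1. Of all probe sets 8.44% and 7.12% did so, and of the 8064 above a mean of 6, 1350 and 1027. Nlrc5, a transactivator of class I genes, was at 0.23 ± 0.11 with overlap. Beside these values the interferon-inducible subunits Psmb8, Psmb9 and Psmb10 lay at -0.05 to 0.02, as given above.

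Upstream sequence was read from RefSeq (GRCm38.p6) for the 250 bases before each gene's start, in which 38 of 46 members had 41 windows. The antioxidant response element, through which NRF1 and NRF2 act, was searched as TGACNNNGC or TGAGNNNGC on both strands. It matched in 26.83% of the 41 member windows, in 32.0% of 25 windows of constitutive subunits (those of Psma4, Psma6, Psmb6, Psmc2, Psmc6, Psmd1 and Psmd12), in 0 of 6 windows of interferon-inducible subunits and in 23.01% of all 32851 windows. Paired units of the heat shock element, GAANNTTC or TTCNNGAA, matched in 4 of the 41 windows (Psmb9, Psmd4, Psme3 and Psmf1), which is 9.76% against 12.84% of all. The letters GAAANNGAA of an interferon regulatory factor site matched in 2 member windows, of Psmd4 and Psmd9 (4.88%, against 7.13% of all), and CCAAT in 31.71% against 33.85%. Over the 25 constitutive windows the shares were 4.0% for the heat shock units, 4.0% for the interferon regulatory factor letters and 36.0% for CCAAT. A match is a run of letters, not a site shown to be bound. The 2 windows printed held matches to no other motif searched. The windows of Psmc6 (chr14:45329574-45329823, plus strand) and Psmd12 (chr11:107479278-107479527, plus strand) are shown because each held 2 antioxidant matches, at 241 and 227 bases and at 247 and 28 bases before the start. They are written 5′ to 3′, with the matches in capitals.
Psmc6: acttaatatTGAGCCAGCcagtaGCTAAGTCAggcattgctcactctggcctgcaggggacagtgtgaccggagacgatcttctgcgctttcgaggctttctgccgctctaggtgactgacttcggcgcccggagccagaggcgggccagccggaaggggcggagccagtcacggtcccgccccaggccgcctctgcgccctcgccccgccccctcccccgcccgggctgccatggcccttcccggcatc
Psmd12: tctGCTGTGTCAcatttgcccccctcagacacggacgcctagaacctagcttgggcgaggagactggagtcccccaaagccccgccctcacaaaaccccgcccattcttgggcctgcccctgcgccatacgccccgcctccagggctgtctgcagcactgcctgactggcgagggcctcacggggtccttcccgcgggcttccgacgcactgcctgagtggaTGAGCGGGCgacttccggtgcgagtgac
The transcripts of these genes differed by 0.09 ± 0.081 (Psmc6) and 0.06 ± 0.080 (Psmd12), neither of which passed.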

How the data were processed

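The values, as deposited by the authors, are on a log2 scale with 1 value for each probe set on each array. Per the submitters' processing notes the tools were RMA, affy and R 2.15.1, whose roles are not stated. RMA by its usual definition quantile-normalizes arrays, which takes out a change common to all genes, and it shrinks differences at low signal. Aligner, build and probe definition are not given in the sources used here, and no detection p-value was used.

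The platform annotation gave 1 symbol for 23185 of 25206 probe sets, updated by Entrez number through a RefSeq table. Members are all symbols of the form Psma to Psmg plus a number. The test was limma's (version 3.58.1, under R 4.3.3; lmFit and eBayes, two-sided, no covariate), with 2.595 prior and 4 residual degrees of freedom and Benjamini-Hochberg adjustment over all probe sets. The fit was tested on simulated data. Members and gene lists were chosen with earlier results of these data known. Every member may be named, with values in every sample for the catalytic and interferon-inducible subunits and for the 12 members with the smallest p. Psma3 was added after its values were seen. Of each related list the 3 genes with the smallest p are named, along with Nfe2l1, Nfe2l2, Pomp, Nlrc5, Irf1, Tap1 and B2m. Motifs were searched after the values were seen. The number of arrays limits the precision.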

Additional observations from a re-analysis of the deposited data

How the results depend on the processing

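The 14 other settings were median centring, quantile normalization, an intensity trend, a robust prior, array weights (statmod 1.5.0), 2 filters that drop dim probe sets, the replicate number as a block, and each array left out. In all of them limma called 0 proteasome members, with 0 to 4 at an unadjusted p under 0.05 and a smallest adjusted p of 0.20 (Psmd7, filter at a mean of 6). In the main fit 8.32% of all probe sets reached that unadjusted p, and the share in the other settings is not given here. The count over all probe sets, 10, became 90 and 385 under the filters, 254 with the trend, 25 with array weights and 0 to 5 without single arrays. The replicate number as a block gave 0 calls. Same-numbered samples correlated in their deviations at 0.0953, -0.126 and 0.104, and 2 of 6 samples correlated best with their own number. With so few samples these values cannot exclude a pairing by number, and none is stated. Array weights moved the median of the other 19S subunits to 0.12, of partners to 0.066 and of interferon factors to -0.063, which median centring put at -0.10. Ube2d1 became the 1 call of the ubiquitin list under the filter at 6 (adjusted p = 0.043), where fewer probe sets were tested, and Ide the 1 call of the class I list with the trend (adjusted p = 0.040), of which the cause was not tested. Leaving out single arrays gave medians of 0.011 to 0.091 for the alpha ring, 0.026 to 0.095 for the beta ring, 0.017 to 0.098 for the other 19S subunits, 0.017 to 0.089 for all constitutive subunits and -0.035 to 0.036 for the inducible ones. List medians then were 0.015 to 0.071 for partners, -0.049 to 0.0038 for the NRF1 list, -0.018 to 0.044 for class I processing and -0.11 to -0.040 for interferon factors.

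The signs of the following differences turned, that of Psma3 from -0.12 among them, and the cause was not tested. Median centring gave -0.0046 for Psma1, -4.36e-04 for Psmb8, -0.0058 for Psmc5, -9.86e-04 for Psmd2, -0.0044 for Psme1 and -0.018 for Psme2. Array weights gave 0.045 for Psma3, 0.0088 for Psma7, -0.036 for Psmb10, 0.033 for Psmb7, -0.010 for Psmb8, -0.027 for Psme2 and 0.068 for Psmg1, and quantile normalization 0.0096 for Psmg1. Without single arrays the sign of 20 members turned at least once. The ranges were -0.057 to 0.086 for Psma1, -0.0089 to 0.090 for Psma2, -0.25 to 0.091 for Psma3, -0.066 to 0.020 for Psma7, -0.050 to 0.024 for Psmb7, -0.013 to 0.044 for Psmb8, -0.10 to 0.010 for Psmb9 and -0.035 to 0.075 for Psmb10. They were -0.046 to 0.011 for Psmc1, -0.047 to 0.0045 for Psmc3, -0.062 to 0.089 for Psmc5, -0.027 to 0.073 for Psmd2, -0.087 to 0.026 for Psmd3, -0.016 to 0.099 for Psmd9 and -0.0011 to 0.098 for Psmd12. They were -0.019 to 0.039 for Psme1, -0.059 to 0.053 for Psme2, -0.092 to 0.11 for Psmg1, -0.0079 to 0.11 for Psmg2, -0.22 to 0.032 for Psmg3 and -0.059 to 0.13 for Psmb10 against Psmb7. The planned comparison of Psmb8 with Psmb5 was not run, because Psmb5 was not analysed here.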
